A study of Mus musculus with 38 samples.

Results

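Livers of 3 male CD-1 mice that ate triadimefon for 30 days were compared with livers of 3 mice that ate control feed for the same time. The members were taken by their array titles, which gave 6 of the 38 arrays in the series, 1 array per animal. Triadimefon, spelled tridimefon in the labels, was mixed into the feed at 1800 ppm and gave an average intake of 257.1 ± 33.5 mg/kg/day (the labels do not say which error this is). Values of 3 other exposures are set beside it where they bear on a result. These were propiconazole at 2500 ppm (349.6 ± 46.7 mg/kg/day) for 30 days in 3 mice, triadimefon for 4 days in 3 mice, against 3 controls of day 4, and phenobarbital at 850 ppm (97.2 ± 5.9 mg/kg/day) for 30 days in 5 mice, against 5 controls of its own. All animals were outbred males of the CD-1 stock given as 6 to 8 weeks old, with no genetic change named in the labels. Whole liver was ground for RNA, so each value averages over all cells of the organ.

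Triadimefon is a triazole fungicide. In rodent liver, many foreign chemicals activate the nuclear receptors CAR and PXR, which switch on cytochrome P450 enzymes of the CYP2B, CYP2C and CYP3A families together with conjugating enzymes and efflux transporters. Hepatocytes also secrete acute phase proteins when inflammatory cytokines reach them, and they make hepcidin (Hamp), the hormone that limits iron export into blood. Several liver transcripts differ between male and female mice because growth hormone is released in pulses in males and more evenly in females.

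Levels are given as log2(intensity + 16) of quantile normalised signals, where 4 is the lowest possible value and 6.15 marks background, set from olfactory receptor genes that liver should lack. A change is the triadimefon mean minus the control mean on this scale, given with its standard error, and it understates the change of dim genes. A gene was called when its adjusted p (limma, Benjamini-Hochberg) was under 0.05. On the 6 arrays the median deposited intensity was 29.5 to 31.1 with triadimefon and 27.7 to 33.8 with control feed, and 9360 to 9467 and 9409 to 9437 genes stood above background. The Actb signal at the 3′ end exceeded that at the 5′ end by 0.42 to 0.47 log2 units with triadimefon and by 0.37 on each control array, and its part in the results was not tested. Albumin, Alb, the defining hepatocyte transcript, was at 13.50 ± 0.04 with triadimefon and 13.49 ± 0.04 with control feed (SD, n = 3 each). Both lie near the highest level on the 6 arrays, 13.66, where quantile normalised values leave little room for a difference. Arrays give no read depth, so the number of animals limits the precision.

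After 30 days of triadimefon, the drug-metabolising enzymes Cyp2b10, Cyp2c55 and Cyp2c65 were among the largest rises and stood at like levels in all 3 treated livers. The acute phase genes Lcn2, Orm3 and Orm2 and the neutrophil gene S100a8 also rose. Levels of Lcn2, Orm3 and Orm2 varied widely between treated animals, while those of S100a8 were closer together. The largest falls included Obp2a, Cyp2u1, Serpina4-ps1 and Susd4, while hepcidin fell in a graded way across the 3 animals.

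Of 17729 genes tested, 958 (5.4%) were called, 427 higher (2.41%) and 531 lower (3%). The 3 treated arrays did not overlap the 3 control arrays for 3735 genes (21.1%), and 872 of the called genes (4.92% of those tested) were among these. Of 12 hepatocyte markers 0 were called, with a median change of -0.03. The total was 502 without treated replicate 1 and 599 without control replicate 1. A fit of 17 conazole arrays, chosen after seeing the data and leaving out a propiconazole day 4 array of high 3′ excess, called 188 genes, 79.3% of them among the 958. Of the 89 genes named by rule for this comparison, 51 lost their call without at least 1 of the 6 arrays. In the 17-array fit 34 of the 89 were called, and it is cited beside single results as the conazole-only fit. The planned fit of all 18 conazole arrays, which keeps the array of high 3′ excess, called 13 of the 89. Lcn2 was not among them (adjusted p = 0.108). A fit of the 6 arrays alone called 29 of the 89.

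**Figure D1:**
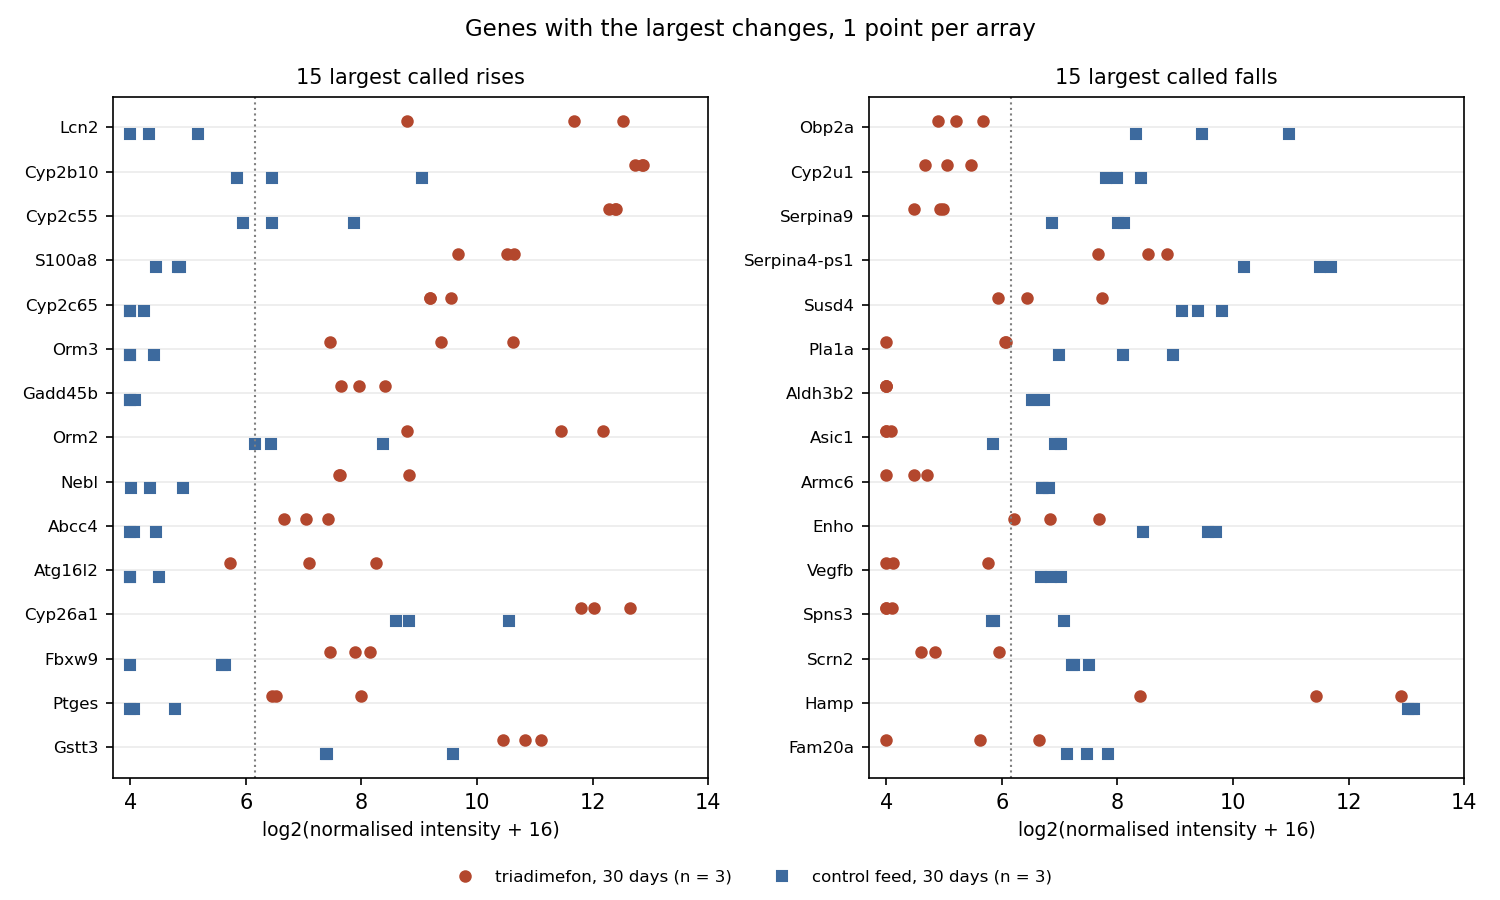
Levels of the 15 largest called rises (left panel) and 15 largest called falls (right panel) whose groups did not overlap, on the log2(normalised intensity + 16) scale, with 1 point per array (circles, triadimefon; squares, control feed; n = 3 each). The dotted line is background at 6.15. Cyp2b10, Cyp2c55 and Cyp2c65 are tight among treated arrays, while Lcn2, Orm3, Orm2 and Hamp spread over several log2 units.

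Cytochrome P450 enzymes that oxidise drugs rose in a set led by the classical CAR target Cyp2b10. Of 20 measured CYP2B, CYP2C and CYP3A enzymes, 7 rose, 1 fell and 12 were not called, with a median change of 0.74 against -0.002 over all genes. Cyp2b10 stood at 12.85, 12.88 and 12.73 in triadimefon livers, against 6.44, 5.84 and 9.05 in control livers. All treated livers lay far above the controls, of which replicate 3 was the highest. The rise was 5.71 ± 0.45 (52.3-fold, adjusted p = 4.35e-10).

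Cyp2c55, an inducible enzyme that hydroxylates arachidonic acid, stood at 12.39, 12.40 and 12.29 with triadimefon and at 6.46, 5.95 and 7.87 with control feed. The groups were well apart, and again control replicate 3 was the highest control. It rose by 5.60 ± 0.32 (48.6-fold, adjusted p = 1.9e-13). Cyp2c65, its close relative, had 9.19, 9.55 and 9.19 in treated livers, against 4.24, 4 and 4 in controls, where no array exceeded background. Its rise was therefore at least 8.91-fold (5.23 ± 0.41, adjusted p = 4.35e-10).

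Smaller rises were found for Cyp2c37 (2.54 ± 0.48, adjusted p = 0.00171), Cyp2c54 (1.36 ± 0.20), Cyp3a44 (1.0 ± 0.25) and Cyp2c50 (0.65 ± 0.09). The call of Cyp3a44 was lost without control replicate 2 (0.87, adjusted p = 0.0711) or 3 (0.86, adjusted p = 0.0709). Cyp2c68 was the enzyme that fell (-0.68 ± 0.19, adjusted p = 0.0321), and treated replicate 2 lay among the controls. No member of the list was called lower without replicate 1 or 3 of either group, with values as deposited, with median centring or in the conazole-only fit. The number of enzymes that rose was 6 or 7 whichever of the 6 arrays was left out, and 6 in the conazole-only fit. Cyp2c29 and Cyp3a11, the abundant constitutive members, were at 13.24 ± 0.03 and 13.13 ± 0.05 in treated livers and at 13.14 ± 0.04 and 13.07 ± 0.05 in controls (SD, n = 3 each). These lie near the highest level on the 6 arrays, 13.66. Paralogs of the Cyp2c family share sequence, so a probe set may read more than 1 of them.

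Members that also mark female liver gave a less even picture. Cyp2b9, a steroid hydroxylase of female liver, was at 7.65, 8.83 and 6.80 with triadimefon and at 5.25, 5.0 and 7.31 with control feed, overlapping groups that were not called (1.91 ± 0.69, adjusted p = 0.104). Cyp2b13 was at 6.49, 7.01 and 5.45, against 5.28, 5.76 and 5.38 in controls (0.84 ± 0.56, adjusted p = 0.451). Neither Nr1i3, which encodes CAR (-0.73 ± 0.59, adjusted p = 0.562), nor Nr1i2, which encodes PXR (0.00 ± 0.30, adjusted p = 1), was called, and of 23 nuclear receptors and coregulators 0 were. Among 21 other CYP1 and CYP2 enzymes 0 rose and 2 fell, Cyp2u1 and Cyp2d40 (-1.69 ± 0.42, adjusted p = 0.0157).

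Retinoic acid hydroxylase Cyp26a1, which clears retinoic acid and is itself a target of retinoic acid receptors, was high in all treated livers. Its levels were 12.02, 11.80 and 12.65 with triadimefon and 8.83, 8.60 and 10.55 with control feed. The groups did not overlap, and control replicate 3 stood closest to the treated range. The rise was 2.83 ± 0.48 (7.11-fold, adjusted p = 0.000603). Of 17 measured genes of retinoid metabolism 1 other was called: Bco1, which cleaves beta-carotene to retinal, fell (-0.95 ± 0.26, adjusted p = 0.0289), a call lost when any of the 6 arrays was left out. The 150 bases before the Cyp26a1 start site (RefSeq, build GRCm38.p6, chr19:37697658-37697807, plus strand) are shown because they hold the element through which this gene is known to respond to retinoic acid. In capitals are, in order along the strand, a match to the NF-kB letters, GGGA and CC with any 4 bases between (66 to 57 bases before the start) and, 32 to 16 bases before the start, a direct repeat read on the opposite strand, 2 copies of AGTTCA with any 5 bases between.

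Cyp26a1: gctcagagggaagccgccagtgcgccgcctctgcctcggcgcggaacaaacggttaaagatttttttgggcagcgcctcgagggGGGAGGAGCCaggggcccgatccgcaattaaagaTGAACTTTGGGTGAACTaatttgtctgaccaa

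That repeat was found in 8 of 32851 promoter windows of the mouse annotation (0.0244%, both strands, 250 bases before to 50 after the start), and the NF-kB letters in 20.7%. The same repeat with 4 bases between its arms was in 0.0122% of windows and in none of 10 genes searched. A match describes these letters and is not evidence of binding in these livers.

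Conjugating enzymes and efflux pumps rose in smaller numbers. Of 21 glutathione S-transferases, which attach glutathione to reactive compounds, 4 rose and 0 fell. Gstm3 was at 13.26, 13.26 and 13.02 in triadimefon livers, against 11.57, 11.22 and 11.57 in control livers, groups that were well apart (1.73 ± 0.15, adjusted p = 7.38e-09). Gstt3 rose by 2.67 ± 0.46 (6.36-fold, adjusted p = 0.000766), Gstm2 by 1.52 ± 0.33 and Gstm4 by 0.94 ± 0.25. Leaving out any 1 of the 6 arrays left 3 or 4 rises, and the conazole-only fit called 2, Gstm3 and Gstt3.

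Among 21 UDP-glucuronosyltransferases, sulfotransferases and their suppliers 6 rose and 0 fell. They were Sult1d1 (1.14 ± 0.32), Sult1c2 (1.11 ± 0.33, at least 1.93-fold), the sulfate donor synthase Papss2 (0.93 ± 0.26), the UDP-glucuronate supplier Ugdh (0.66 ± 0.20), Ugt2b34 (0.66 ± 0.08, adjusted p = 1.53e-05) and Ugt2b35 (0.45 ± 0.12). The count fell to 1 without treated replicate 1 or control replicate 2 and to 2 without treated replicate 2, and it was 3 without control replicate 1 or 3 and 4 without treated replicate 3. With values as deposited, with median centring and in the conazole-only fit it was 1.

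Of 14 ABC efflux transporters 3 rose. Abcc4, which exports conjugates into blood, was at 7.41, 7.04 and 6.67 with triadimefon and not above background on any control array (4.07, 4 and 4.45). It was thus at least 1.85-fold higher (2.87 ± 0.53, adjusted p = 0.00158). Abcc3, another exporter of conjugates into blood, rose by 1.07 ± 0.16 (adjusted p = 9.59e-05), and Abcb1a, the drug pump P-glycoprotein, by 1.04 ± 0.24, a call lost without treated replicate 1 (0.96, adjusted p = 0.0508). Both uptake transporters called are organic anion carriers: Slco1a4 rose (1.98 ± 0.58, adjusted p = 0.039, groups overlapping) and Slco1a1, which is male-biased, fell (-0.65 ± 0.18, adjusted p = 0.0301). Neither call held throughout: Slco1a4 lost it without replicate 1 or 2 of either group (adjusted p = 0.074 to 0.217), and Slco1a1 without treated replicate 1 or 3 or control replicate 2 or 3, with -0.42 (adjusted p = 0.225) without treated replicate 3. Of 11 uptake transporters 0 were called with values as deposited or in the conazole-only fit.

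Among 27 P450 partners, carboxylesterases and other phase I enzymes 4 rose and 2 fell. The carboxylesterase Ces2a was at 13.21, 13.20 and 13.20 in treated livers, against 12.35, 12.44 and 12.50 in controls, the tightest rise of the list (0.78 ± 0.08, adjusted p = 5.14e-07). Ces1g (1.39 ± 0.36), the aldehyde dehydrogenase Aldh1a7 (1.08 ± 0.25) and cytochrome b5, Cyb5a (0.20 ± 0.06), also rose, while the epoxide hydrolase Ephx2 (-0.52 ± 0.12) and Ces1c (-0.18 ± 0.05) fell. Ces2a alone of the 4 rises was called in the conazole-only fit, and 1 to 4 rises were called when 1 of the 6 arrays was left out, with 1 without control replicate 2 and 2 without control replicate 1 or treated replicate 1 or 2. Of 19 NRF2 responsive redox genes Abcc4, Abcc3 and the nucleotidase Entpd5 (0.77 ± 0.17, adjusted p = 0.00561) rose and Taldo1 fell (-0.43 ± 0.13). Taldo1 lost its call without any 1 of the 6 arrays except control replicate 2 (adjusted p = 0.054 to 0.225). Nqo1, the textbook NRF2 target, was below background on all 6 arrays.

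**Figure D2:**
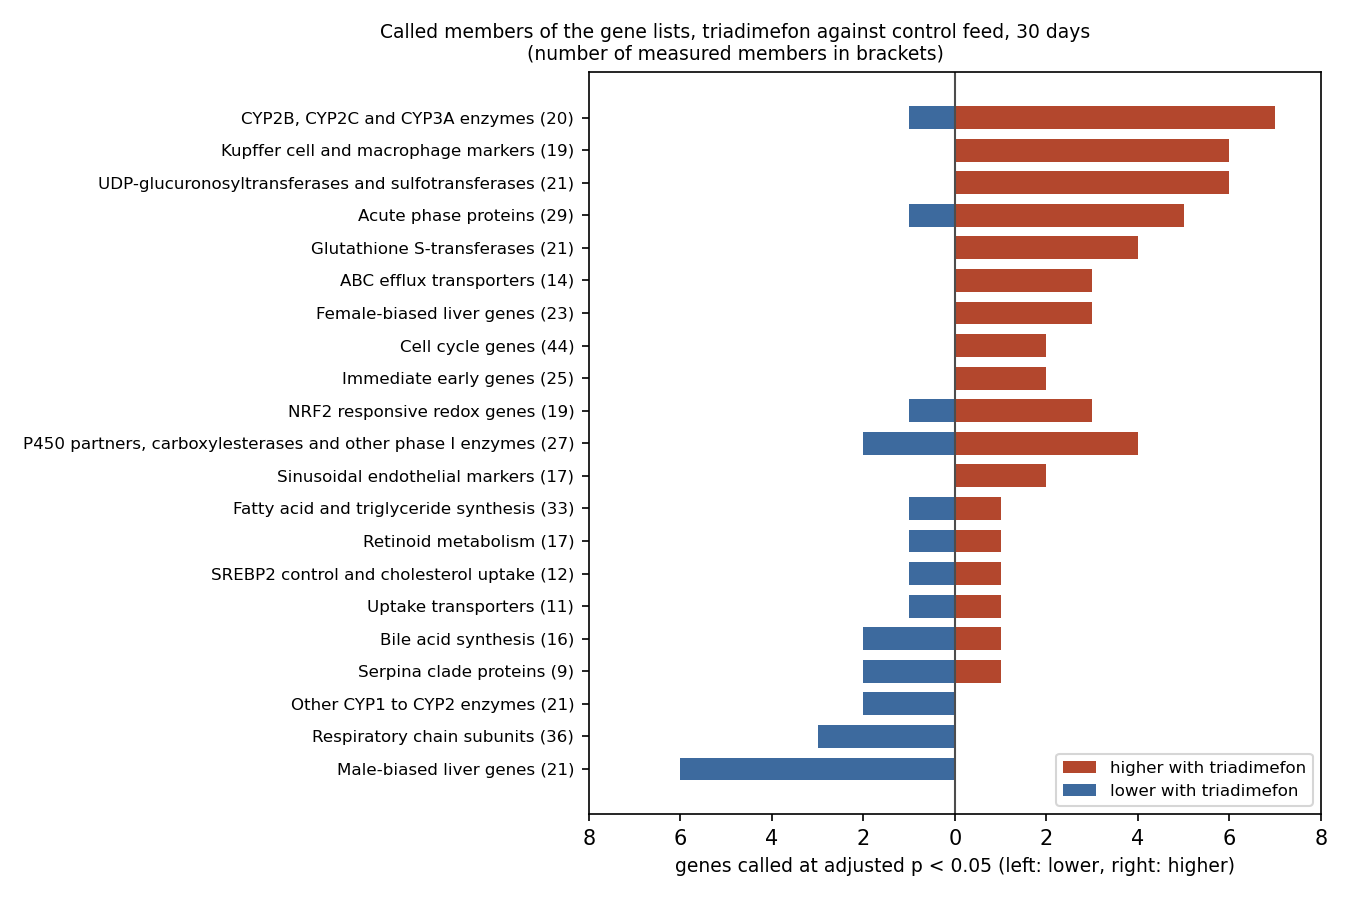
Number of called members in each gene list with more than 1 called gene (bars right of 0, higher in triadimefon livers; bars left of 0, lower), triadimefon against control feed on day 30, with the number of measured members in brackets. The CYP2B, CYP2C and CYP3A list has 7 higher and 1 lower, and the male-biased list 0 higher and 6 lower.

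Acute phase genes formed the second pattern, and it ran unevenly through the treated animals. Of 29 measured acute phase proteins 5 rose, 1 fell and 23 were not called, with a median change of 0.40. Lcn2, an iron-binding protein that starves bacteria of iron, was at 11.67, 8.79 and 12.52 in triadimefon livers, against 5.18, 4.32 and 4 in control livers. No control exceeded background, and treated replicate 2 was the lowest treated liver by a wide margin. Its rise was at least 28.6-fold (6.49 ± 1.34, adjusted p = 0.00372).

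Orm3 and Orm2 encode forms of alpha-1-acid glycoprotein, a plasma protein that binds drugs. Orm3 was at 9.38, 7.46 and 10.62 with triadimefon and at 4, 4.40 and 4 with control feed, at least 8.00-fold higher (5.02 ± 1.17, adjusted p = 0.00947). Orm2 was at 11.45, 8.79 and 12.18, against 6.44, 8.38 and 6.16 (3.82 ± 1.16, adjusted p = 0.048). In both, treated replicate 2 was the lowest treated liver, and for Orm2 it lay just above the highest control. Orm3 lost its call without treated replicate 3 (4.29, adjusted p = 0.0569), and Orm2 without treated replicate 1 or 3 or control replicate 1 or 3 (3.13 to 3.54, adjusted p = 0.139 to 0.189). Orm1, another member whose probe set can read near-identical copies, was at 12.94, 12.58 and 13.12, against 12.43, 12.62 and 12.19, and was not called (0.46 ± 0.16, adjusted p = 0.0955).

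The lipopolysaccharide-binding protein Lbp (1.47 ± 0.44, adjusted p = 0.0467) and Crp (0.56 ± 0.12, adjusted p = 0.00452) also rose, in all 3 treated livers above all controls. Lbp kept its call only without treated replicate 2, with adjusted p of 0.0505 to 0.165 without any other of the 6 arrays. Serum amyloid Saa2 was at 12.45, 7.94 and 12.97 in treated livers, against 8.21, 8.55 and 7.58 in controls. Replicates 1 and 3 were thus far above the controls while replicate 2 lay among them, and the gene was not called (3.01 ± 1.20, adjusted p = 0.147). Saa1 showed the same order of animals (12.93, 10.09 and 13.10, against 10.55, 10.77 and 9.50; adjusted p = 0.196).

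The metal-binding protein Mt2 was at 12.14, 11.55 and 13.16 with triadimefon and at 9.78, 10.02 and 7.77 with control feed, groups that did not overlap but were not called (3.10 ± 1.17, adjusted p = 0.12). Summed over the list, normalised intensity was 180385, 141140 and 202282 in treated livers and 141097, 148356 and 136750 in controls, so replicate 2 lay within the control range and replicates 1 and 3 above it. The list had 9 rises without treated replicate 2, and 3, 2, 3, 4 and 3 without treated replicate 1, treated replicate 3 and control replicates 1, 2 and 3. It had 2 with values as deposited or median centring and 5 in the conazole-only fit, where Orm3 was not among them (adjusted p = 0.0667).

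Hepcidin moved the other way. Its fall was largest in treated replicate 3, the liver with the highest Lcn2, Orm3, Orm2 and Saa2. It was smallest in replicate 1, where those genes were also high. Hamp was at 12.91, 11.43 and 8.39 in triadimefon livers, against 13.14, 13.09 and 13.03 in control livers. All treated livers were below all controls, but replicate 1 by little, replicate 2 by more and replicate 3 by several log2 units. The mean fall was -2.18 ± 0.55 (4.52-fold lower, adjusted p = 0.0177). That error is from the pooled spread, whereas the SD was 2.31 among treated and 0.053 among control livers. In a fit of the 6 arrays alone Hamp was not called. Without treated replicate 3 the fall was -0.92 and not called (adjusted p = 0.162), without control replicate 1 the adjusted p was 0.0517, and in the conazole-only fit it was 0.18. Mouse liver has a second, near-identical hepcidin gene whose transcript the probe set may also read.

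The 150 bases before the start sites of 3 acute phase genes are shown (RefSeq, build GRCm38.p6). These are Hamp (chr7:30944030-30944179, minus strand), Orm2 (chr4:63362299-63362448, plus strand) and Orm3 (chr4:63356008-63356157, plus strand). They were chosen because Hamp was called lower and Orm2 and Orm3 higher. Capitals mark the STAT letters TTCNNNGAA in Hamp, 97 to 89 bases before the start, and the C/EBP letters TTGCNNAA in Orm2 and Orm3, 120 to 113 and 121 to 114 bases before it. STAT3 and C/EBP factors are the textbook carriers of cytokine signals to acute phase promoters.

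Hamp: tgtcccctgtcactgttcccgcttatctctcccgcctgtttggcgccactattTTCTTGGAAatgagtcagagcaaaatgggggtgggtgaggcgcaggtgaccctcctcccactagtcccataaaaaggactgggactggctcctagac
Orm2: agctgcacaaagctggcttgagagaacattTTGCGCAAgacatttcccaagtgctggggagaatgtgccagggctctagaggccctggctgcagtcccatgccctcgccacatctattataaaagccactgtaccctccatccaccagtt
Orm3: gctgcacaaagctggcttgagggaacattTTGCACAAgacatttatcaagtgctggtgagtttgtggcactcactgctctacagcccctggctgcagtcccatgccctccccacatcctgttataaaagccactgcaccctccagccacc

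Over all 32851 windows the STAT letters were in 8.3% and the C/EBP letters in 10.8%, on either strand. C/EBP letters were also found in the windows of Lcn2, Saa2 and Cyp2b10, and none of the 5 motifs searched was found in those of S100a8 and Cyp2c65. Such matches describe the letters in these windows only.

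S100a8, a calcium-binding protein abundant in neutrophils, was at 9.68, 10.52 and 10.64 in triadimefon livers, against 4.45, 4.83 and 4.86 in control livers. The treated livers were alike and no control was above background, a rise of at least 17.5-fold (5.57 ± 1.34, adjusted p = 0.012; 0.072 in the conazole-only fit). Its partner S100a9 was at 8.72, 5.62 and 8.56, against 4.20, 5.66 and 5.44, with replicate 2 among the controls, and was not called (2.53 ± 0.82, adjusted p = 0.0646). S100a8 was the sole called gene of 8 neutrophil markers, of which 4 had a positive and 4 a negative change (median -0.02). Their summed intensity was 1879 to 2510 with triadimefon and 493 to 647 with control feed. Bright genes such as S100a8 weigh most in such a sum, so it does not describe the markers as a set. The granule genes Camp, Mmp8 and Elane were below background on all 6 arrays.

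Markers of Kupffer cells, the resident macrophages of liver, were higher in the same livers as the serum amyloids. Of 19 measured markers 6 rose and 0 fell, 18 had a positive change and the median change was 0.98. Adgre1, which encodes the macrophage antigen F4/80, was at 10.06, 8.75 and 9.73 in triadimefon livers, against 8.39, 8.44 and 8.33 in control livers, and all treated livers exceeded all controls (1.13 ± 0.23, adjusted p = 0.00329). The complement subunit C1qc was at 11.10, 9.38 and 10.51, against 8.95, 9.04 and 8.54 (1.48 ± 0.34, adjusted p = 0.00877), a call lost without treated replicate 1 (1.10, adjusted p = 0.0866). In each, treated replicate 2 was the closest to the controls.

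Marco, a scavenger receptor for bacteria, was at 7.53, 4 and 8.24 with triadimefon and at the lowest possible value on all 3 control arrays (2.59 ± 0.63, adjusted p = 0.0128), so replicate 2 equalled the controls and the rise was at least 1.35-fold. Without treated replicate 1 or 3 it was not called (2.12 and 1.77, adjusted p = 0.0891 and 0.115). Timd4, a receptor for dying cells, was at least 2.20-fold higher (adjusted p = 0.0289, but 0.171 and 0.116 without treated replicates 1 and 3, and 0.0525 and 0.122 without control replicates 1 and 2), Csf1r rose by 0.90 ± 0.26 with overlapping groups (a call lost without 5 of the 6 arrays left out singly), and the mannose receptor Mrc1 by 0.47 ± 0.13. The Kupffer cell lectin Clec4f (0.62 ± 0.28, adjusted p = 0.212), Vsig4 (0.98 ± 0.33, adjusted p = 0.0754) and Cd68 (0.67 ± 0.31, adjusted p = 0.216) were not called. Summed over the list, intensity was 22576, 7967 and 15880 in treated livers and 7036, 8345 and 6589 in controls. In whole liver a larger number of macrophages and more RNA per macrophage cannot be told apart, and the same holds for fewer cells and less RNA per cell of any type.

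The number of Kupffer cell markers called was among the least stable counts. It was 9 without treated replicate 2, 1 and 2 without treated replicates 1 and 3, and 4, 3 and 4 without control replicates 1, 2 and 3. Values as deposited and median centring gave 3 each, and the conazole-only fit 1, Adgre1.

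**Figure D3:**
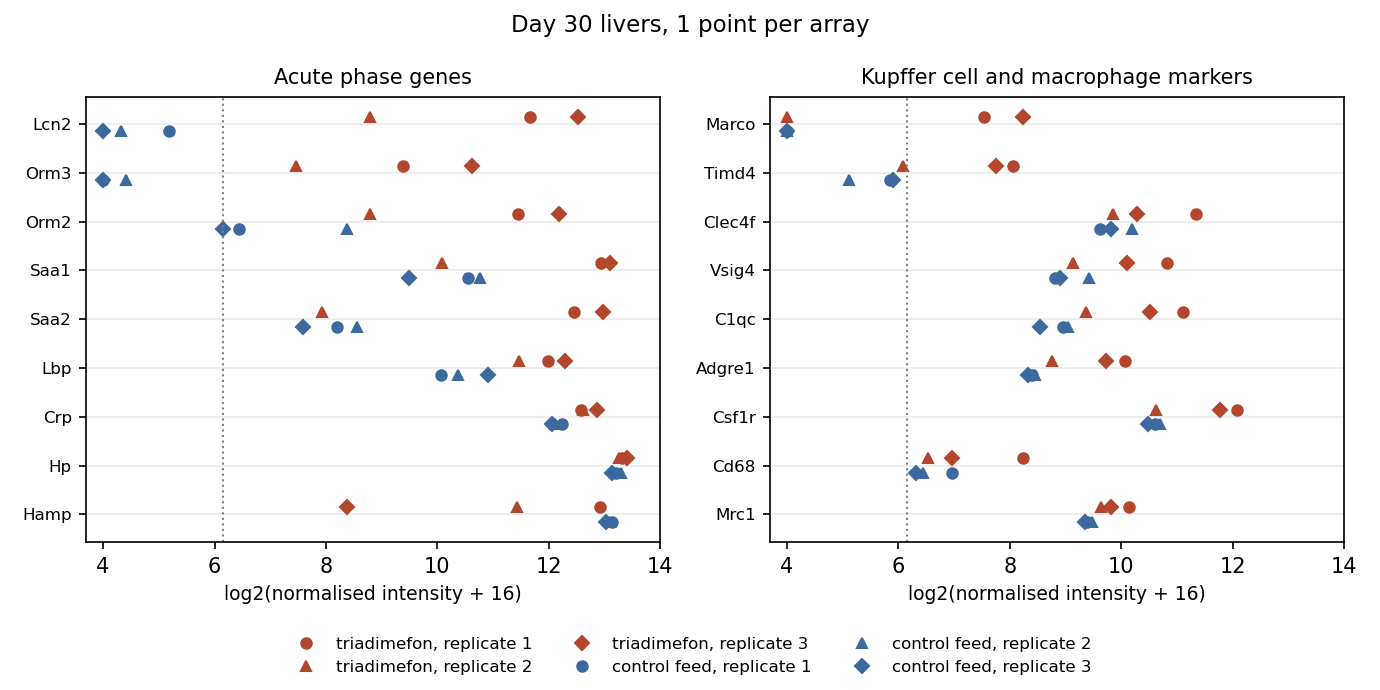
Levels of acute phase genes (left panel) and Kupffer cell markers (right panel) on the log2(normalised intensity + 16) scale, with 1 symbol per replicate (circle, 1; triangle, 2; diamond, 3), triadimefon drawn above control feed for each gene. The dotted line is background at 6.15. Treated replicate 2 (upper triangles) is the lowest treated liver for Lcn2, Saa2, Marco and Adgre1, while treated replicate 3 (upper diamonds) is lowest for Hamp.

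Of the other cell types described here, each had 1 or 2 called markers, so each share rests on 1 or 2 genes. The share called was 6.67% for T, B and NK cells, 11.8% for sinusoidal endothelium and 5% for stellate cells and matrix. It was 12.5% for pancreatic acinar and 16.7% for red blood cell markers, against 5.4% of all genes. Ptprc, the pan-leukocyte antigen CD45, was the only called gene of 15 markers of T, B and NK cells, at 9.26, 7.63 and 8.66 in treated livers and 6.80, 7.29 and 7.13 in controls (1.45 ± 0.32, adjusted p = 0.00597; 1 of its 2 probe sets showed this direction), a call lost without treated replicate 1 (1.07, adjusted p = 0.0701), and the T cell genes Cd3d, Cd3e and Cd3g stayed below background on all 6 arrays. Lyve1 (1.27 ± 0.35) and Cdh5 (0.65 ± 0.19) rose among 17 sinusoidal endothelial markers, whose sum was 5681 to 6556, against 6292 to 6980. Of those endothelial markers 4 had a positive and 12 a negative change (median -0.10). Of the T, B and NK cell markers 4 had a positive and 9 a negative change. Of 20 stellate cell and matrix markers only Tagln fell (-1.87 ± 0.49, at least 1.06-fold, adjusted p = 0.0218), with sums of 6352 to 6445 and 7194 to 10004. Cela1 fell among 8 pancreatic acinar markers (-1.44 ± 0.40), and Alas2, a red cell gene, was called with overlapping groups, control replicate 3 being as high as the treated livers (10.95, against 7.92 and 8.08 in the other controls). Of the red blood cell markers 2 had a positive and 4 a negative change. Left out singly, 4 of the 6 arrays each ended the calls of Lyve1, Cdh5, Tagln and Cela1, and 5 that of Alas2. Their part in the results was not tested.

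Male-biased transcripts were lower after 30 days. Of 21 measured male-biased liver genes 0 rose, 6 fell and 15 were not called; 18 had a negative change and the median was -0.44. Cyp2u1, a P450 that hydroxylates fatty acids, was at 5.04, 5.46 and 4.68 in triadimefon livers, against 8.41, 7.81 and 7.99 in control livers. It was below background in every treated liver and at least 3.77-fold lower (-3.01 ± 0.43, adjusted p = 5.95e-05). The complement regulator Susd4 was at 5.94, 7.74 and 6.44, against 9.80, 9.40 and 9.12, also with no overlap (-2.74 ± 0.45, 6.66-fold lower, adjusted p = 0.000479).

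The serpin pseudogene transcript Serpina4-ps1 (-2.78 ± 0.60, 6.87-fold lower, adjusted p = 0.00528), the signalling ligand Ihh (-1.01 ± 0.25; not called without treated or control replicate 1), the carrier Slco1a1 and the coenzyme A hydrolase Nudt7 (-0.55 ± 0.15) completed the falls. Some of the best known male-biased genes were not called: Hsd3b5 was at 10.71, 11.39 and 10.84, against 12.13, 11.80 and 12.02 (adjusted p = 0.543), and Cyp4a12a was at 12.56 ± 0.07, against 12.61 ± 0.05 (SD, n = 3 each). All treated livers were below all controls for Hsd3b5, though it was not called. Summed over the list, intensity was 63363 to 66675 with triadimefon and 78693 to 83478 with control feed.

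The 6 falls became 3 without treated replicate 1 and 4 or 5 without any other single array, and 3 with values as deposited. Cyp2u1 and Susd4 were the 2 called in the conazole-only fit. Of 23 female-biased genes Cyp2b10, Cyp3a44 and Prom1 (2.57 ± 0.66, at least 2.68-fold, adjusted p = 0.0191) rose and 0 fell, with a median of 0.47, and 9 were below background on all 6 arrays. The share called was 13%, against 5.4% of all genes. Cyp2b10 and Cyp3a44 are also counted in the CYP2B, CYP2C and CYP3A list. Neither Prom1 nor Cyp3a44 was called in the conazole-only fit (adjusted p = 0.151 and 0.0749). The count of rises was 1 without control replicate 2, and 2 without treated or control replicate 3. Igfbp3 was the called gene of 16 of the growth hormone and IGF axis, and it fell (-1.09 ± 0.28, adjusted p = 0.0195). That call was lost without treated replicate 2 or control replicate 1 or 3 (adjusted p = 0.118, 0.0553 and 0.111).

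Among the remaining large falls, Obp2a, an odorant-binding protein of the lipocalin family, was at 5.67, 4.90 and 5.21 in triadimefon livers, against 10.97, 9.46 and 8.32 in control livers. No treated liver exceeded background, and the fall was at least 10.8-fold (-4.32 ± 0.77, adjusted p = 0.00111). Serpina9 was at least 2.84-fold lower and the phospholipase Pla1a at least 3.64-fold lower (adjusted p = 0.000489 and 0.0013). Enho, which encodes the secreted peptide adropin, was at 6.83, 6.21 and 7.68, against 9.70, 9.56 and 8.45 (-2.33 ± 0.56, adjusted p = 0.0113; 3 of its 4 probe sets showed this direction), a call lost without treated replicate 2 or control replicate 1 (-1.98 and -2.10, adjusted p = 0.0562 and 0.0561).

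Several falls were to the lowest part of the scale, where only a bound can be given. Aldh3b2 was at least 1.37-fold, the ion channel Asic1 at least 1.36-fold, Armc6 at least 1.5-fold (1 of its 2 probe sets), the growth factor Vegfb at least 1.61-fold, Spns3 at least 1.07-fold and Scrn2 at least 2.24-fold lower. Their fitted changes ran from -2.60 to -2.19 with adjusted p of 9.13e-05 to 0.00329. Fam20a (-2.06 ± 0.61, adjusted p = 0.0437) lost its call without any 1 of the 6 arrays except treated replicate 1.

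Among the remaining large rises, the stress-inducible signalling protein Gadd45b was at 7.96, 8.41 and 7.64 in treated livers, against 4.08, 4 and 4 in controls, at least 3.61-fold higher (3.98 ± 0.65, adjusted p = 0.000404). Gadd45a (adjusted p = 0.384) and Gadd45g (adjusted p = 0.735) were not called. Nebl, an actin-binding protein, was at least 3.66-fold higher in 2 of its 3 probe sets, Atg16l2 at least 1.82-fold, Fbxw9 at least 3.19-fold and Ptges, which makes prostaglandin E2, at least 1.79-fold (adjusted p = 0.00171 to 0.00936). Of these 5 genes Gadd45b alone was called in the conazole-only fit, and Atg16l2 lost its call without treated replicate 3.

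Sterol, heme and energy lists differed in their called share on day 30, where 5.4% of all genes were called. It was 0% for cholesterol biosynthesis and heme genes, 6.06% for fat synthesis and 8.33% for respiratory chain subunits. It was 16.7% for SREBP2 control and cholesterol uptake and 18.8% for bile acid genes. Of 17 cholesterol biosynthesis genes 0 were called; 15 had a negative change and the median was -0.31. The squalene epoxidase Sqle was at 10.05, 9.98 and 10.98 with triadimefon and at 10.41, 10.66 and 10.84 with control feed, and Cyp51, the mammalian counterpart of the fungal target, was at 9.60, 9.57 and 10.21, against 9.85, 10.31 and 10.48. In both genes replicate 3 was the highest treated liver, above all controls for Sqle and within the control range for Cyp51. Of 12 genes of SREBP2 control and cholesterol uptake, Insig2, which holds SREBP in the endoplasmic reticulum, rose (0.50 ± 0.10, adjusted p = 0.0035) and Scap, its escort, fell (-0.81 ± 0.23, adjusted p = 0.0322). Scap lost that call without any 1 of the 6 arrays but was called in the conazole-only fit.

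Heme synthesis and breakdown had 0 of 11 genes called, with Alas1, the rate-limiting enzyme, at 11.40, 11.12 and 10.75, against 10.43, 11.85 and 10.20. Among 36 respiratory chain subunits Sdhd (-0.64 ± 0.11, adjusted p = 0.000414), Cyc1 (-0.47 ± 0.12) and Ndufs3 (-0.21 ± 0.06) fell; 33 had a negative change, with a median of -0.16. That list had 1 to 4 falls without 1 of the 6 arrays, the lowest number without treated replicate 3 or control replicate 1 or 3, and 4 in the conazole-only fit. Elovl6, a fatty acid elongase, rose (1.18 ± 0.33) and the acyltransferase Agpat2 fell (-0.67 ± 0.17) among 33 genes of fat synthesis. Of 16 bile acid genes the reductase Akr1d1 rose (0.78 ± 0.20) and Hsd17b4 and Hsd3b7 fell (-0.29 and -0.24), while Cyp7a1, the rate-limiting enzyme, was not called (-1.33 ± 0.54, adjusted p = 0.158). Elovl6 and Hsd3b7 lost their calls without any 1 of the 6 arrays (adjusted p = 0.054 to 0.116 and 0.0505 to 0.126), Akr1d1 and Hsd17b4 without 4 of them, and Agpat2 without treated replicate 2 or control replicate 3 (-0.49 and -0.60, adjusted p = 0.118 and 0.0765).

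In 11 of 46 lists no gene was called, among them heat shock proteins, the unfolded protein response, pericentral hepatocyte genes, circadian clock genes and glucose and insulin responsive genes. In other lists the called share was 2.94% of proteasome, 3.12% of complement and coagulation, 3.57% of fatty acid oxidation and 4.55% of cell cycle genes. It was 4.76% of urea cycle and periportal, 8% of immediate early, 12.5% of AHR responsive and 33.3% of Serpina genes, against 5.4% of all genes. Mcm2, a replication licensing factor at least 1.26-fold higher, and the cell cycle inhibitor Cdkn2c (0.84 ± 0.24) were 2 of 44 cell cycle genes, of which 18 were below background on all 6 arrays. Further calls were the aryl hydrocarbon receptor Ahr (0.75 ± 0.19; not called without replicate 2 of either group), Masp1 (0.61 ± 0.16), Serpina6 (0.86 ± 0.22) and the proteasome subunit Psma1 (0.82 ± 0.17), all higher, and Bdh1 (-0.64 ± 0.13) and the histidine lyase Hal (-0.75 ± 0.18), both lower. The early response factors Klf6 and Fosb (0.96 ± 0.29 and 0.89 ± 0.25) rose among 25 immediate early genes. Klf6 and Cdkn2c lost their calls without 5 of the 6 arrays left out singly, Fosb and Mcm2 without 4 and Masp1 without 3. Serpina6 lost its call without treated replicate 3 or control replicate 1 (adjusted p = 0.0776 and 0.157), and Hal without control replicate 2 (adjusted p = 0.0623).

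Day 30 and day 4 of triadimefon were compared through the difference of their changes, each from same-day controls. Several cholesterol synthesis genes and Alas1, called higher on day 4, were not called on day 30. Over all genes 232 (1.31%) differed between the days, 87 with a more positive change on day 30 (0.491%) and 145 with a more negative one (0.818%). Of the 17 cholesterol biosynthesis genes 8 rose on day 4, where 2.1% of all genes did, and 0 on day 30, and for 5 of them the day 30 change was lower than the day 4 change by test. Those were Mvk, mevalonate kinase (-1.12 on day 30, 2.49 on day 4; difference -3.62, adjusted p = 0.0131), Sqle (-0.30 and 1.45; -1.75, adjusted p = 0.0337), Idi1 (-0.48 and 1.19; -1.67), Cyp51 (-0.42 and 0.96; -1.38) and Msmo1 (-0.26 and 1.02; -1.28). Alas1, the 1 of 11 heme genes called on day 4, had 0.26 on day 30 and 3.24 on day 4 (difference -2.98, adjusted p = 0.0118).

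The median difference of the cholesterol list was -1.14, against -0.01 over all genes, and between -1.38 and -1.03 without any 1 of the 12 arrays. Its number of called genes fell to 1 without triadimefon day 30 replicate 1 or 2, control day 30 replicate 3, triadimefon day 4 replicate 1 or 2 or control day 4 replicate 2 or 3, and to 3 without control day 30 replicate 2, whereas the call of a heme gene stayed at 1 throughout. The Actb 3′ excess was 0.76 to 0.94 in triadimefon and 0.8 to 1.3 in control livers of day 4, above the day 30 arrays, and its part was not tested. The total of 232 fell to 65.9% of its size without triadimefon day 30 replicate 3, to 97 without triadimefon day 4 replicate 1 and to 105 without control day 4 replicate 2.

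**Figure D4:**
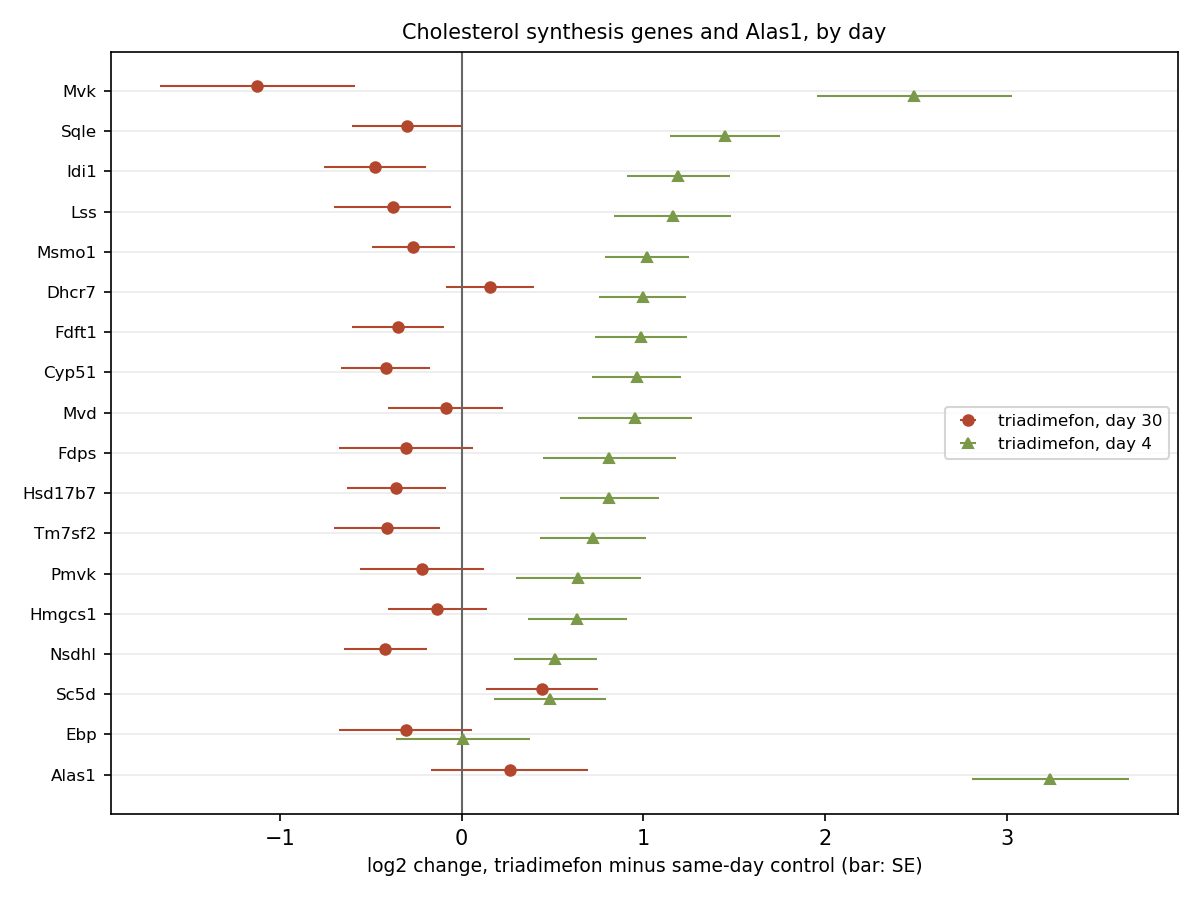
Change in log2 units (triadimefon minus same-day control, bars are standard errors) of the 17 measured cholesterol biosynthesis genes and Alas1 on day 30 (circles) and day 4 (triangles). On day 30, 15 of the 17 genes lie left of 0, Mvk the furthest at -1.12, while on day 4 Mvk is at 2.49 and Alas1 at 3.24.

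Cyp2b10 had changes of 5.71 on day 30 and 4.43 on day 4 (difference 1.28 ± 0.63, adjusted p = 0.362) and Cyp2c55 of 5.60 and 5.24 (adjusted p = 0.804). Cyp2c65 was the enzyme whose change was larger on day 30 by test (5.23 and 2.45; 2.78, adjusted p = 0.0124). Lcn2, called on day 30 and not on day 4, had changes of 6.49 and 1.36, but their difference was not called (5.13 ± 1.90, adjusted p = 0.182), and neither was that of Hamp (-1.41, adjusted p = 0.434), Orm3, Adgre1 (0.89, adjusted p = 0.173) or C1qc (1.61, adjusted p = 0.0877). Of the acute phase genes and the Kupffer cell markers 0 were called on day 4, against 3.75% of all genes. The difference between the days was also called for 0 members of either list.

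Propiconazole for 30 days, at a higher feed level and with the same 3 control livers, is set beside triadimefon gene by gene. Against those controls propiconazole had 1917 called genes (10.8%), and between the 2 compounds 692 genes differed (3.9%). Changes with triadimefon and propiconazole were 5.71 and 5.94 for Cyp2b10, 5.60 and 6.00 for Cyp2c55, 5.23 and 6.12 for Cyp2c65, 6.49 and 5.84 for Lcn2, -4.32 and -5.55 for Obp2a and -3.01 and -3.26 for Cyp2u1. The compounds were not called different in any of these 6 genes (adjusted p = 0.244 to 0.902), though the errors leave room for a difference, as for Cyp2b10 (-0.23 ± 0.45) and Lcn2 (0.65 ± 1.34). Hamp had -2.18 and -0.59, a difference of -1.59 that was not called (adjusted p = 0.109), and 0 Kupffer cell markers were called with propiconazole, whose list median change was 0.48. Set directly against each other, the compounds were called different in 0 of the 19 Kupffer cell markers, against 3.9% of all genes.

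Set directly against propiconazole livers, triadimefon livers had 298 genes higher (1.68%) and 394 lower (2.22%) of the 17729 tested. The steroid enzyme Hsd3b5 was higher with triadimefon (3.08, adjusted p = 0.0191), as was Susd4 (1.97, adjusted p = 0.0112). Against control feed their changes were -1.01 and -2.74 with triadimefon and -4.09 and -4.71 with propiconazole. Hsd3b5 lost its call without triadimefon replicate 2 (2.88, adjusted p = 0.0608) or 3 (3.15, adjusted p = 0.0505) or propiconazole replicate 3 (1.36, adjusted p = 0.191), and in a fit of the 6 arrays alone (adjusted p = 0.412). Of the 21 male-biased genes 2 were higher with triadimefon and 0 lower, but 0 were higher and 1 lower without triadimefon replicate 2. Cyp2b13 was lower with triadimefon (-3.23, adjusted p = 0.00089), whose change of 0.84 stood against 4.07 with propiconazole, and so were Abcc4 (-2.22, adjusted p = 0.014), Sult1c2 (-1.69, adjusted p = 0.00322) and the carbonyl reductase Cbr3 (-2.67, adjusted p = 0.00642; -1.91 and 0.0508 without propiconazole replicate 1).

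Pericentral hepatocyte genes separated the compounds too: Oat (1.73), Ang (1.09), Glul, glutamine synthetase (0.68), and Rgn (0.44) were higher with triadimefon than with propiconazole, 4 of 20 measured (2 without triadimefon replicate 3 or propiconazole replicate 1). Against control feed their changes were 0.20, -0.06, 0.04 and -0.07 with triadimefon and -1.53, -1.15, -0.64 and -0.51 with propiconazole. Sox4, a transcription factor of progenitor cells, was below background on all triadimefon and control arrays and was raised by propiconazole (2.63), with a difference of -2.54 (adjusted p = 3.09e-08). Other large differences were Zmynd8 (2.99), Mcm3ap (2.54), Lhpp (2.54), Wfdc2 (2.53), Atp11a (2.45), Adam4 (2.43) and Neurod4 (2.29) on the higher side, and Lratd1 (-3.02), Fgfrl1 (-2.98), Prss8 (-2.94), Col2a1 (-2.60) and Il1f8 (-2.49) on the lower. Feed levels and intakes differed, so these are differences between the diets as given. The total of 692 fell to 415 and 450 without triadimefon replicates 3 and 1 and to 423 without propiconazole replicate 3.

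Phenobarbital, the classical CAR activator, came with its own experiment and controls, so the comparison is between changes. Of all genes 80 (0.451%) differed between these changes, 33 with a more positive value for triadimefon (0.186%) and 47 with a more negative one (0.265%). Triadimefon and phenobarbital changes on day 30 were 5.71 and 4.09 for Cyp2b10, 5.60 and 5.20 for Cyp2c55, 5.23 and 6.18 for Cyp2c65, 2.54 and 3.02 for Cyp2c37 and 1.73 and 1.88 for Gstm3, with no difference called (adjusted p = 0.199 to 0.844). Cyp2u1 (-3.01 and -0.41; difference -2.60, adjusted p = 0.0231) and Susd4 (-2.74 and -0.33; -2.41, adjusted p = 0.0498) had lower changes with triadimefon. Susd4 lost that call without any 1 of the 6 conazole arrays except triadimefon replicate 2 (adjusted p = 0.0533 to 0.139), and Cyp2u1 without triadimefon replicate 3 or control replicate 1 (adjusted p = 0.0544 and 0.055); both lost it with values as deposited. For Lcn2 the changes of 6.49 and 1.12 did not differ by test (adjusted p = 0.15).

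The count of 80 was 29 without control replicate 2 of the conazole experiment and 45 without triadimefon replicate 1. Among the 80 genes Rab5c, a GTPase of early endosomes, was at 9.34, 9.22 and 9.28 in triadimefon livers, against 7.65, 7.39 and 8.16 in their controls, a change of 1.54 beside -0.04 with phenobarbital (adjusted p = 0.00604). Slc35b2, which carries the sulfate donor PAPS into the Golgi, was at 6.67, 5.99 and 6.92, against 8.42, 8.40 and 8.35, a change of -1.87 beside 0.09 (adjusted p = 0.000541; 1 of its 2 probe sets). Compound and experiment cannot be told apart in this contrast.

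**Figure D5:**
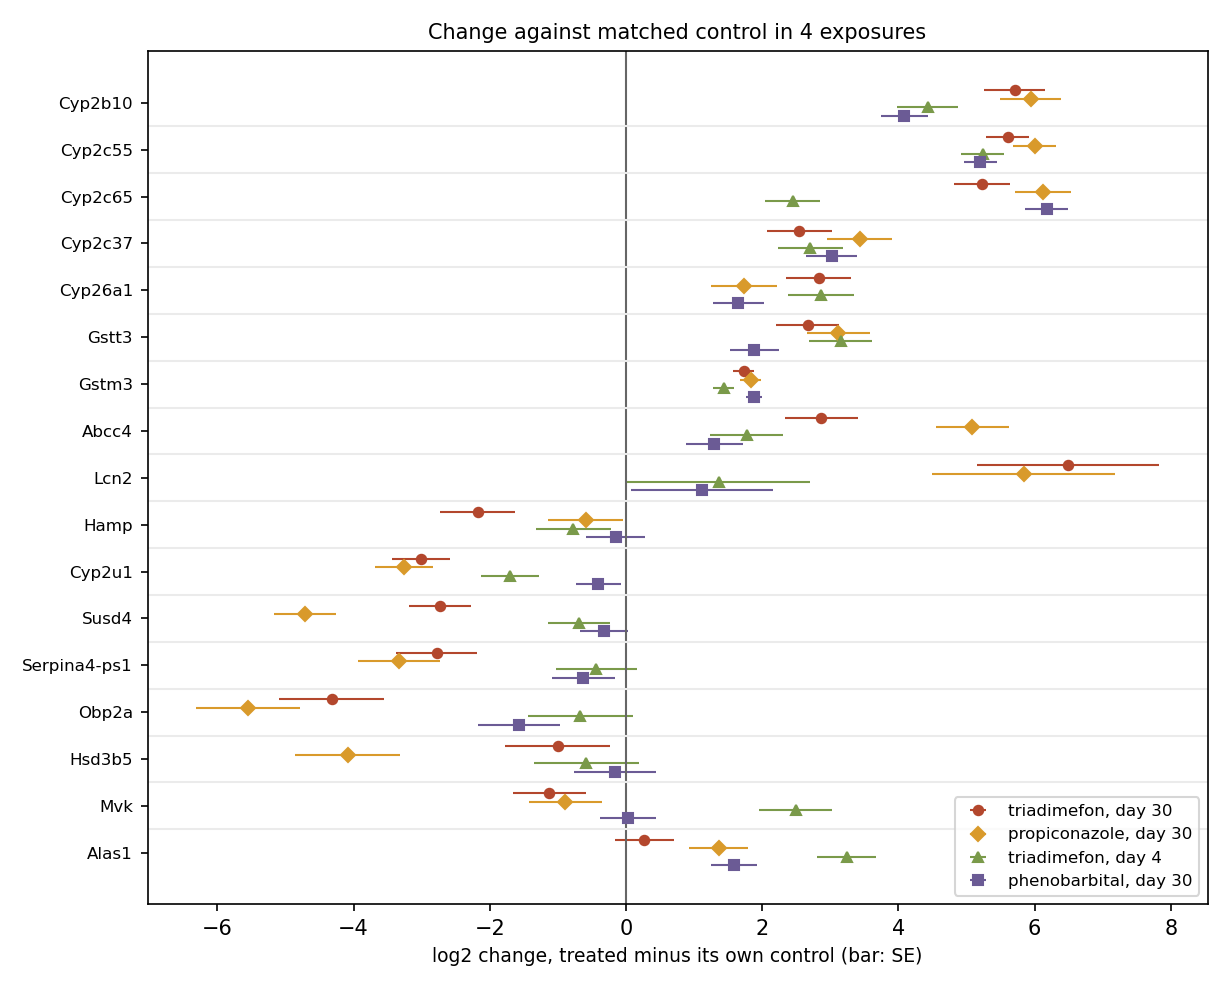
Change in log2 units against matched control (bars are standard errors) of 17 genes after triadimefon for 30 days, propiconazole for 30 days, triadimefon for 4 days and phenobarbital for 30 days. The P450 genes at the top lie right of 0 in all 4 exposures, Hamp is lowest after triadimefon for 30 days at -2.18, and Mvk and Alas1 are highest after triadimefon for 4 days.

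The 3 treated animals also differed from each other in genes outside these lists, picked after their values were seen. The antigen-presenting molecule H2-Ab1 was at 11.21, 6.20 and 8.18 in triadimefon livers, against 7.47, 7.22 and 7.12 in control livers, so replicate 1 was far above and replicate 2 below every control. The interferon-induced chemokine Cxcl9 was at 9.17, 5.21 and 5.36, against 4.12, 4 and 4, high in replicate 1 alone. Cd14, a coreceptor for lipopolysaccharide, was at 5.86, 4 and 8.88, against 5.56, 5.13 and 4.82, high in replicate 3 alone. None of these patterns carries a test.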

How the data were processed

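RNA from whole liver was hybridised to Affymetrix mouse 430 2.0 arrays, 1 per animal, and the deposited values are linear intensities, 21.15% of them below 0. Per the labels' protocols, RNA was extracted with Tri Reagent and RNeasy and labelled with Enzo kits, and the animals are biological replicates. Which software summarised the probes is not stated. The deposited intensities of the 38 arrays were brought to 1 common distribution (quantile normalization), negative results were raised to 0, and log2(intensity + 16) was taken.

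Of 45101 probe sets 34958 had 1 gene symbol in the platform annotation, 932 had several and 9211 were not listed there. The probe set with the highest mean stood for its gene, and 465 genes with constant values were left out, leaving 17729. limma 3.58.1 in R 4.3.3 fitted 1 mean per group over the 38 arrays, with a mean-variance trend and Benjamini-Hochberg adjustment. The fit was tested on simulated data, drawn with 1 spread per gene in all groups. It recovered 75 of 100 genes changed by 1 log2 unit and 96 of 100 changed by 2. Of its 188 calls 17 were false. The real groups differed in spread, with a median gene SD of 0.129 to 0.405, which the simulation did not cover. The background level was taken from 38 olfactory receptor genes, as the 95th percentile over their means. Where no array of a group exceeded it, a fold is given as a bound, at least N-fold. The 6 arrays compared held no identical pair.

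Genes were named by rule: the 15 strongest changes upward and the 15 strongest downward among called genes without overlap between groups, leaving out clone names and cross-hybridising probe sets, and up to 5 called members of each list, with other members where their role is described. For the other contrasts it names the 8 largest in each direction. The members and the 46 gene lists, of which 804 genes were measured, were chosen with earlier results of these data known. Alternatives tried for triadimefon against control feed were values as deposited, median centring, other pseudocounts, a background filter and averaged probe sets. Smaller sets of arrays, array weights, no trend, a replicate block and leaving out each array were also tried. The other contrasts were run with only some of these. Same-numbered arrays correlated at -0.01 to 0.13 in their deviations, so the numbers were not taken to pair samples.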

Additional observations from a re-analysis of the deposited data

Results flagged for a closer look

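Genes named for the contrasts with day 4 and with phenobarbital are given here because the difference between the changes itself passed the test in limma (adjusted p under 0.05). All values are differences of log2 changes.

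The triadimefon change on day 30 exceeded that on day 4 for Cyp2c65 by 2.78, for the interleukin receptor Il1r1 by 4.3, for Neurl4 by 3.16, for Fbxw9 by 3.14, for Cnga2 by 2.9, for the repressor Mnt by 2.83, for the matrix protein Ntn4 by 2.45 and for Zfp385b by 2.37. It was lower on day 30 for Mvk (-3.62), Inhba, the activin subunit (-3.3), Alas1 (-2.98), Armc6 (-2.78), Necap2 (-2.57), Rab11fip1 (-2.49), Lrrc38 (-2.48) and Slc9b1 (-2.3).

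The triadimefon change exceeded the phenobarbital change on day 30 for Arrdc1 (2.57), Fndc11 (1.83), S100b (1.76), the ceramide synthase Cers6 (1.73), Adam4 (1.69), Dock10 (1.61), Rab5c (1.58) and Ttyh3 (1.56). It was lower for Aldh3b2 (-2.7), Cyp2u1 (-2.6), Susd4 (-2.41), Armc6 (-2.38), the growth factor Vegfb (-2.28), Cd276 (-1.99), Slc35b2 (-1.96) and Tprn (-1.94).

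These calls differ in how far they depend on single arrays and on the normalisation. The alternatives run here were values as deposited, the array of high 3′ excess left out, and single triadimefon or conazole control arrays left out in turn. Median centring, averaged probe sets and fits of smaller sets of groups were not run for these contrasts. Whether the calls depend on those settings was not tested. Of the 16 genes of the day contrast 9 kept their call under all 14 alternatives, and Fbxw9 lost it under 9 and Neurl4 under 7. Of the 16 genes of the phenobarbital contrast 3 (Armc6, S100b and Slc35b2) kept it under all 8, and 8 lost it under at least 4: Susd4, Vegfb, Arrdc1, Ttyh3 and Cd276 under 6 each, Fndc11 under 5, and Cers6 and Dock10 under 4. No direction reversed in either contrast, but these genes were chosen by their calls on the same arrays, so reversals were unlikely from the start.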

How the results depend on the processing

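Triadimefon against control feed called 958 genes. It called 396 with values as deposited, 515 with median centring, 111 with only the 6 arrays, 36 with only the 18 conazole arrays, 1699 without the array of high 3′ excess (propiconazole, day 4), 188 in the added fit of 17 conazole arrays, and 502 to 895 when 1 of the 6 arrays was left out. The 18 arrays were normalised on their own and the 17 together with all 38, so 36 and 188 differ by more than the array left out. The replicate block gave 1045, and the numbers share no pairing that the data bear out. Triadimefon against propiconazole called 692 genes, 274 as deposited, 10 with 6 arrays, 1157 without the high 3′ excess array and 415 to 669 with 1 array left out. Day 30 minus day 4 called 232 genes, 417 as deposited (10.1% of them higher, against 37.5%), 601 without the high 3′ excess array and 97 to 319 with 1 array left out. Triadimefon minus phenobarbital called 80, 12 as deposited, 370 without the high 3′ excess array and 29 to 92 with 1 array left out. The cause was not tested. Among 1679 values of the 89 named genes under the alternatives run, 1185 kept their call and 494 lost it, and 11 genes kept it under every one. No direction reversed, but these genes were chosen by their calls on the same arrays, so reversals were unlikely from the start. Of 16 genes named between triadimefon and propiconazole 3 kept their call under all 10 alternatives run for that contrast. Fgfrl1 lost it under 7 and Neurod4 and Prss8 under 6 each. Median centring and averaged probe sets were not run there. Signals near background limit the size of many falls to a bound.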
